A study of Mus musculus with 4 samples.

Results

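The 36 genes described here are immediate early genes and heat shock genes: 32 genes of the fast transcriptional response to stimulation, and 4 genes of the cytosolic heat shock response. They were taken by symbol from the 55418 gene entries of a single-cell RNA sequencing data set of sorted mouse thymus cells, and all 36 symbols were found. No measured value entered the choice of symbols, but the list was drawn up with earlier results of these data known. The question was whether the difference in these genes between the libraries of 2 reporter strains is seen in every cell class.

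Immediate early genes are switched on within minutes of a stimulus without the need for new protein synthesis. Signals through MAP kinases and calcium act on transcription factors that are already in the cell, such as SRF and CREB, and the first products are themselves transcription factors of the AP-1, EGR and NR4A families, together with phosphatases and mRNA decay factors that shut the response down. Heat shock genes are switched on by HSF1 when unfolded proteins accumulate, and their products are chaperones. Both groups are also known to be induced in many tissues by enzymatic dissociation, a step that every library here went through and whose part in the differences below was not tested.

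The tested group was MaFIA, in which the Csf1r promoter drives EGFP together with an NGFR/FKBP1A/TNFRSF6 fusion, and the mice were 5 weeks old. It was compared with CD11c-YFP, in which the Itgax promoter drives the yellow fluorescent protein Venus, and those mice were 9 weeks old. All mice were C57BL/6, the thymus was digested with DNase I and collagenase P, and GFP+ or YFP+ cells were sorted. There were 2 MaFIA and 2 CD11c-YFP libraries. The methods name 1 female MaFIA mouse and 2 male CD11c-YFP mice, and whether the 2 MaFIA libraries came from separate animals is not stated in the sources used here. Reporter, age and sex change together between the groups and cannot be told apart, and with so few libraries the p-values measure only the spread between these libraries.

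MaFIA replicate 1 held 5500 barcodes with a median of 3980.5 unique molecular identifiers (UMIs, 1 per captured mRNA molecule) and stood apart from the other libraries in depth. MaFIA replicate 2, CD11c-YFP replicate 1 and CD11c-YFP replicate 2 held 6347, 7687 and 9737 barcodes with medians of 17493, 15759 and 17210 UMIs, and any pair of libraries shared 10 to 25 barcodes. By a rule set together with the gene list, and not from these depths, the comparisons below rest on MaFIA replicate 2 against both CD11c-YFP libraries. MaFIA replicate 1 is given beside them. In these 3 libraries 20916 of 23549 cells (88.8%) fell into clusters that could be named from markers, and 10 classes had at least 10 cells in each library: Timd4+ macrophage-like, Cx3cr1+ macrophage-like, monocyte-like, Xcr1+, Ccr7+ and Cd209a+ dendritic cell-like, plasmacytoid dendritic cell-like, B cell-like, thymocyte-like and thymic epithelial-like cells, called by these names without the suffix from here on. None of the 36 genes was used for clustering or naming. The thymic epithelial class held 22, 16 and 25 cells in MaFIA replicate 2, CD11c-YFP replicate 1 and CD11c-YFP replicate 2, so its values are the least precise. Of these cells 0, 7 and 1, in the same order, scored as likely doublets, which were kept.

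Promoter sequences are shown for 6 members, which represent the 2 ways in which the groups are known to be switched on. Of these, Fos, Dusp1, Nr4a1 and Zfp36 were lower in MaFIA in the test given below. Hspa1a and Hspa1b did not pass that test and had the highest ratios between the CD11c-YFP libraries. RefSeq windows on GRCm38.p6 were found for 30 of the 36 symbols, 26 of them immediate early genes. Each line gives the 250 bases before the start site, 5′ to 3′ on the strand of the gene. The capitals mark the half-site of the cyclic AMP response element, TGACG or CGTCA, in Fos (chr12:85473640-85473889, plus strand), Dusp1 (chr17:26508473-26508722, minus strand) and Nr4a1 (chr15:101266596-101266845, plus strand); the CArG box, to which SRF binds, in Zfp36 (chr7:28379229-28379478, minus strand); and an inverted pair of heat shock element units, GAANNTTC, in Hspa1a (chr17:34972157-34972406, minus strand) and Hspa1b (chr17:34959239-34959488, minus strand).
Fos: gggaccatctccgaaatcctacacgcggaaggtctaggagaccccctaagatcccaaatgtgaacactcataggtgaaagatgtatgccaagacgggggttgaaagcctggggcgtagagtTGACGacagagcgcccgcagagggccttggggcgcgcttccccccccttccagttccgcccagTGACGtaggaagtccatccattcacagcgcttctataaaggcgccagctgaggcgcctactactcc
Dusp1: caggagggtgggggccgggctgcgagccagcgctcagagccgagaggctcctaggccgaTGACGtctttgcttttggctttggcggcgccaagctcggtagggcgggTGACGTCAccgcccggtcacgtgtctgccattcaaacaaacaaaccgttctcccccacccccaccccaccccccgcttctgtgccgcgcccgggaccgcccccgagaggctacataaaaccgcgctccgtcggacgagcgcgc
Nr4a1: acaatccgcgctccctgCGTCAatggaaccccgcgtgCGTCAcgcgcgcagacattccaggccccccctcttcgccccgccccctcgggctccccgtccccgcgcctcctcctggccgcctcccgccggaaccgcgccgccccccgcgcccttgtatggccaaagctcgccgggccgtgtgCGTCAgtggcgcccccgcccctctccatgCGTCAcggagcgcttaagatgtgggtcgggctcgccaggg
Zfp36: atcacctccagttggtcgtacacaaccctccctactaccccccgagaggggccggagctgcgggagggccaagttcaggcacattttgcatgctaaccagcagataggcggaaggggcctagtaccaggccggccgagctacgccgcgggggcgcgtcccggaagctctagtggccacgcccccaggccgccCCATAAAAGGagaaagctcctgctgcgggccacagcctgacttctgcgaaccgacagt
Hspa1a: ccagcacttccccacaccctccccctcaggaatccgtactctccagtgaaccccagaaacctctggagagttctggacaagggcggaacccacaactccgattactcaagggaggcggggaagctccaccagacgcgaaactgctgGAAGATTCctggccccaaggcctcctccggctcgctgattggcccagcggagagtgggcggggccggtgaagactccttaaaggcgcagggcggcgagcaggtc
Hspa1b: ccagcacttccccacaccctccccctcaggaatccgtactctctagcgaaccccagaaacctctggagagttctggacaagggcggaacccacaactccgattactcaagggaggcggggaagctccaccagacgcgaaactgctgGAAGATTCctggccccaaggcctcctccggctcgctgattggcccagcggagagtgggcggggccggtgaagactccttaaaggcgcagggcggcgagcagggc

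The half-site TGACG, read on both strands, was present in 15 of 26 immediate early windows (57.7%), against 19.8% of the windows of 27025 genes. Nr4a1 held 4 such half-sites and Fos 2, while Dusp1 held 3, a pair of which overlap as the full palindrome TGACGTCA. That palindrome was present in 7.69% of the immediate early windows, against 1.77% of all genes, and the CArG box in 11.5%, against 1.62%. The heat shock pair, GAANNTTC or TTCNNGAA, was found in 3 of 4 heat shock windows, against 14.5% of all genes. In contrast, the AP-1 site TGANTCA was about as common in the immediate early windows (7.69%) as in all genes (7.82%). These are matches of letters and not measured sites. The windows of Hspa1a and Hspa1b were identical at 247 of 250 bases, and because both genes are near-identical copies, how their reads were split between them is uncertain.

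All 36 members had lower fitted expression in MaFIA replicate 2 than in the CD11c-YFP libraries when every class contributed the same number of UMIs in each library. The largest differences were in the AP-1 genes Fos and Fosb and in the phosphatase Dusp1, each 20.5 to 31.1 times higher in CD11c-YFP, whereas the heat shock genes also differed at least 2-fold between the CD11c-YFP libraries. In edgeR's quasi-likelihood test with Benjamini-Hochberg adjustment over 19025 genes, 22 members were lower in MaFIA, 0 were higher and 14 did not pass an adjusted p of 0.05. Over all genes tested, 5.5% were lower and 3.61% higher. The count fell to 1 member without a low-count filter (0.0239% of all genes lower) and to 11 in whole-library sums of the classified cells (0.238%). DESeq2 called 31 members lower, with 1017 of all genes lower, and limma on class averages called 32, with 422 of all genes lower. Taken from the levels and not from the fit, the median log2 difference, MaFIA minus CD11c-YFP, was -1.96 over the members and 0.00025 over all genes. The fit has 1 MaFIA library and 1 residual degree of freedom, so the spread of the MaFIA side is assumed to equal that between the CD11c-YFP libraries, and levels below are given in CPM, the UMIs of a gene scaled to 1000000 UMIs in the sum. A lower sum can mean fewer expressing cells or less mRNA per cell, and per-cell values follow further on.

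**Figure D1:**
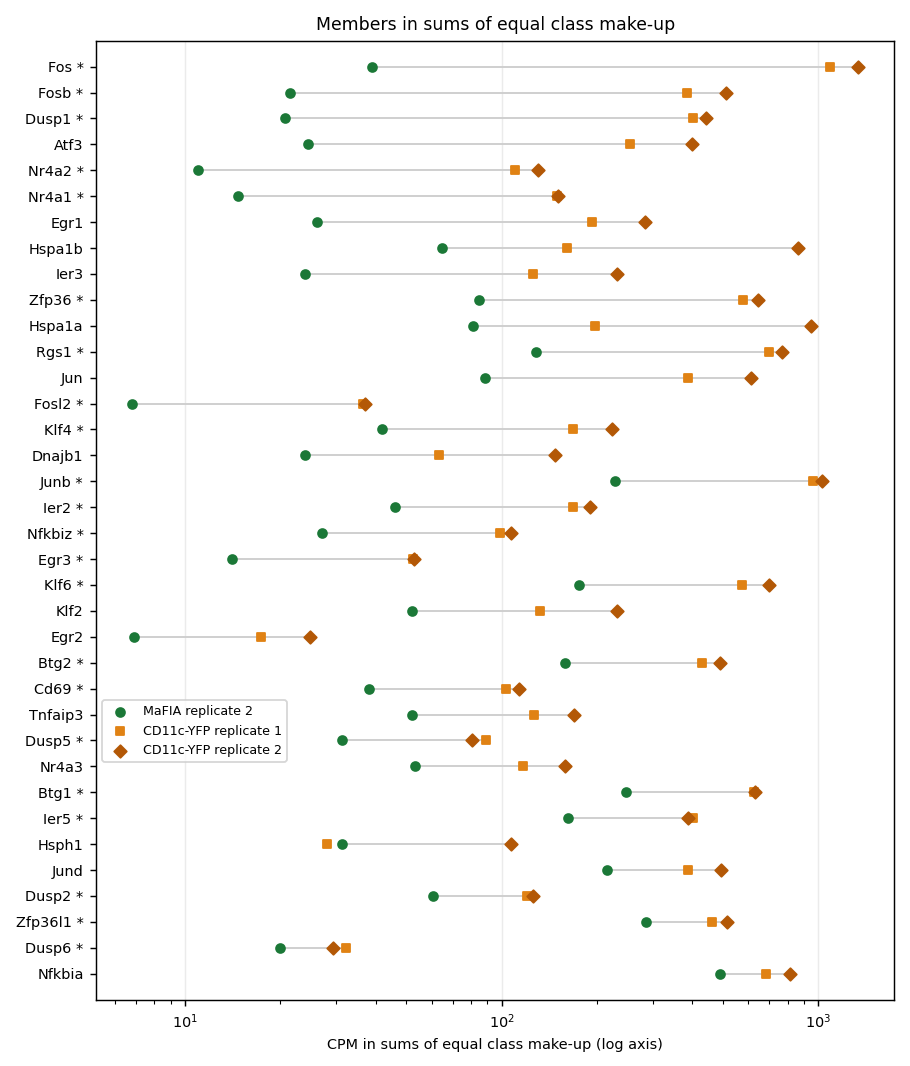
Level of each of the 36 members in CPM (log axis) in MaFIA replicate 2, CD11c-YFP replicate 1 and CD11c-YFP replicate 2, in sums where each cell class contributes the same UMIs. Each point is 1 library and an asterisk marks an edgeR adjusted p under 0.05; the MaFIA point lies left of both CD11c-YFP points for every member but Hsph1, and the CD11c-YFP points are at least 2-fold apart only for the heat shock genes.

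Fos, a subunit of the AP-1 dimer, had 38.9 CPM in MaFIA replicate 2, against 1084 and 1335 CPM in CD11c-YFP replicates 1 and 2. The log2 difference was -4.98 (SE 0.22, edgeR adjusted p = 0.00806). Fosb, its paralog, had 21.5 CPM in MaFIA, against 383 and 511 CPM in CD11c-YFP (log2 -4.40, edgeR adjusted p = 0.0241). In both genes the MaFIA level was far outside the gap between the CD11c-YFP libraries. Fosl2 (6.82, against 36.3 and 37.0 CPM) and Junb (228, against 960 and 1027 CPM) also fell. Jun had 88.7 CPM in MaFIA, against 386 and 614 CPM in CD11c-YFP, and Jund had 215 CPM, against 389 and 494 CPM. Neither passed the test, with adjusted p of 0.131 and 0.0764 in edgeR, although MaFIA lay below both libraries. Atf3, a stress-induced partner of AP-1 proteins, had 24.4 CPM in MaFIA, against 255 and 400 CPM in CD11c-YFP (log2 -3.76, edgeR adjusted p = 0.0874).

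Among the EGR and NR4A factors, the orphan nuclear receptors Nr4a1 and Nr4a2 fell most clearly. Nr4a1, which is induced by antigen receptor signals in lymphocytes, had 14.6 CPM in MaFIA, against 149 and 150 CPM in CD11c-YFP (log2 -3.37, SE 0.09, edgeR adjusted p = 0.000263). Nr4a2 had 10.95 CPM in MaFIA, against 110 and 130 CPM in CD11c-YFP (log2 -3.47, edgeR adjusted p = 0.00485). The values of Nr4a1 in the CD11c-YFP libraries were almost equal. Egr3 (14.1, against 52.6 and 52.7 CPM) fell as well. Egr1, the founding member of the EGR zinc finger family, had 26.1 CPM in MaFIA, against 193 and 283 CPM in CD11c-YFP, a log2 difference of -3.21 that missed the threshold (edgeR adjusted p = 0.0733). Egr2 (6.90, against 17.3 and 24.8 CPM) and Nr4a3 (53.2, against 117 and 159 CPM) did not pass either.

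All 4 MAP kinase phosphatases, which switch off the kinases that induce them, were lower in MaFIA. Dusp1 stood out, with 20.6 CPM in MaFIA, against 402 and 441 CPM in CD11c-YFP (log2 -4.37, SE 0.12, edgeR adjusted p = 0.000426). The others differed less, with log2 differences of -1.45 for Dusp5, -1.04 for Dusp2 and -0.64 for Dusp6. Dusp6 is a feedback inhibitor of ERK, and its direction was not kept in sums of all kept cells of 4 libraries, 2 against 2, where its log2 difference was 0.078.

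Of the mRNA decay and NF-kB feedback genes, 3 of 5 fell. Zfp36, which encodes the mRNA-destabilizing protein tristetraprolin, had 84.6 CPM in MaFIA, against 579 and 646 CPM in CD11c-YFP (log2 -2.87, SE 0.12, edgeR adjusted p = 0.00178). Nfkbiz (27.0, against 98.6 and 107 CPM) and Zfp36l1 (286, against 462 and 516 CPM) were the other two. Nfkbia, the NF-kB inhibitor, had the smallest difference of all members, with 490 CPM in MaFIA, against 682 and 811 CPM in CD11c-YFP (log2 -0.62). It did not pass the test, nor did Tnfaip3 (52.1, against 127 and 168 CPM).

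Among the early response and antiproliferative genes, Ier2, Ier5, Btg1 and Btg2 fell, with log2 differences of -1.98, -1.29, -1.36 and -1.55. Ier3 had 23.9 CPM in MaFIA, against 126 and 232 CPM in CD11c-YFP, and did not pass (log2 -2.92, edgeR adjusted p = 0.205). Of the Krüppel-like factors, Klf4 (42.0, against 168 and 223 CPM) and Klf6 (175, against 576 and 699 CPM) fell, whereas Klf2 (52.1, against 132 and 231 CPM) did not pass the test. Rgs1, a brake on chemokine receptor signalling, had 128 CPM in MaFIA, against 700 and 769 CPM in CD11c-YFP (log2 -2.54, edgeR adjusted p = 0.00178). Cd69, an early activation antigen of lymphocytes that blocks egress, also fell (38.1, against 103 and 114 CPM).

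The 4 heat shock genes behaved differently from the immediate early genes, because the CD11c-YFP libraries did not share a level. Hspa1a, an inducible HSP70 chaperone, had 81.0 CPM in MaFIA, against 197 and 951 CPM in CD11c-YFP replicates 1 and 2 (log2 -2.85, SE 1.80, edgeR adjusted p = 0.480). Hspa1b, the second inducible HSP70 gene, had 64.9 CPM in MaFIA, against 160 and 861 CPM in CD11c-YFP (log2 -3.00, SE 1.92). Dnajb1, an HSP40 co-chaperone, had 23.9 CPM in MaFIA, against 63.2 and 147 CPM in CD11c-YFP, so that all 3 genes were lowest in MaFIA. Hsph1, an HSP110 nucleotide exchange factor, had 31.2 CPM in MaFIA, against 28.0 and 107 CPM in CD11c-YFP, and MaFIA thus lay between the CD11c-YFP libraries. None of the 4 passed the edgeR test, at an unadjusted p under 0.05 either. After adjustment DESeq2 called 0 and limma on class averages called 1, Dnajb1. At an unadjusted p under 0.05, 1 was lower in DESeq2 and 3 in limma.

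Between the CD11c-YFP libraries themselves, all 4 heat shock genes were at least 2-fold higher in replicate 2 than in replicate 1, with ratios of 5.37 for Hspa1b, 4.83 for Hspa1a, 3.82 for Hsph1 and 2.33 for Dnajb1. Of 7887 genes of at least 10 CPM in these libraries, 24 (0.304%) reached that ratio, and Hspa1b and Hspa1a had the highest ratios of all. None of the 32 immediate early members did, their ratios running from 0.901 for Dusp5 to 1.85 for Ier3. Of 23 other heat shock proteins and chaperones at that level, Bag3, an HSP70 co-chaperone, was the one that reached it, with 31.3 CPM in replicate 2 and 12.3 CPM in replicate 1. Among 32 immediate early genes outside the members, 1 also reached it (ratio 2.39). So did 1 of 23 other NF-kB feedback and early cytokine genes (ratio 2.41). The constitutive chaperone Hspa8 had a ratio of 1.15 and Hsp90ab1 of 1.23, while the inducible Hsp90aa1 had 1.59. These 2 libraries have the same reporter and the same labels, with 1 library each, so these ratios have no test.

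Whole libraries, in which class make-up was not held equal, allow MaFIA replicate 1 to be compared too. There, both MaFIA libraries lay below both CD11c-YFP libraries for 34 of 36 members, against 24.2% of 8049 genes of at least 10 CPM, with Dusp6 and Hsph1 as the exceptions. The summed level of the 32 immediate early members was 2216 and 2748 CPM in MaFIA replicates 1 and 2, against 10486 and 12736 CPM in CD11c-YFP replicates 1 and 2. The 2 MaFIA libraries were close to each other in spite of the difference in depth. For the 4 heat shock members the sums were 276 and 182 CPM in MaFIA, against 452 and 2182 CPM in CD11c-YFP, so the groups did not overlap, but CD11c-YFP replicate 1 was closer to MaFIA than to its own replicate.

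The difference between the reporter libraries was seen in all 10 classes in direction, and members passed the test in 9 of them. MaFIA replicate 2 lay below both CD11c-YFP libraries in 342 of 360 pairs of a member and a class, against 35.2% of the pairs of 8569 genes of at least 10 CPM on average. It lay above both in 6 pairs, against 41.8% of those pairs over all genes. For 25 members MaFIA was below both in every class, which was true of 3.37% of those genes, while 3.4% of the genes and 0 members were above both in every class. For Fos, Fosb, Jun, Dusp1 and Dnajb1 even the highest MaFIA class was below the lowest CD11c-YFP class. That last condition was not counted over all genes, so whether it is unusual is not known.

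**Figure D2:**
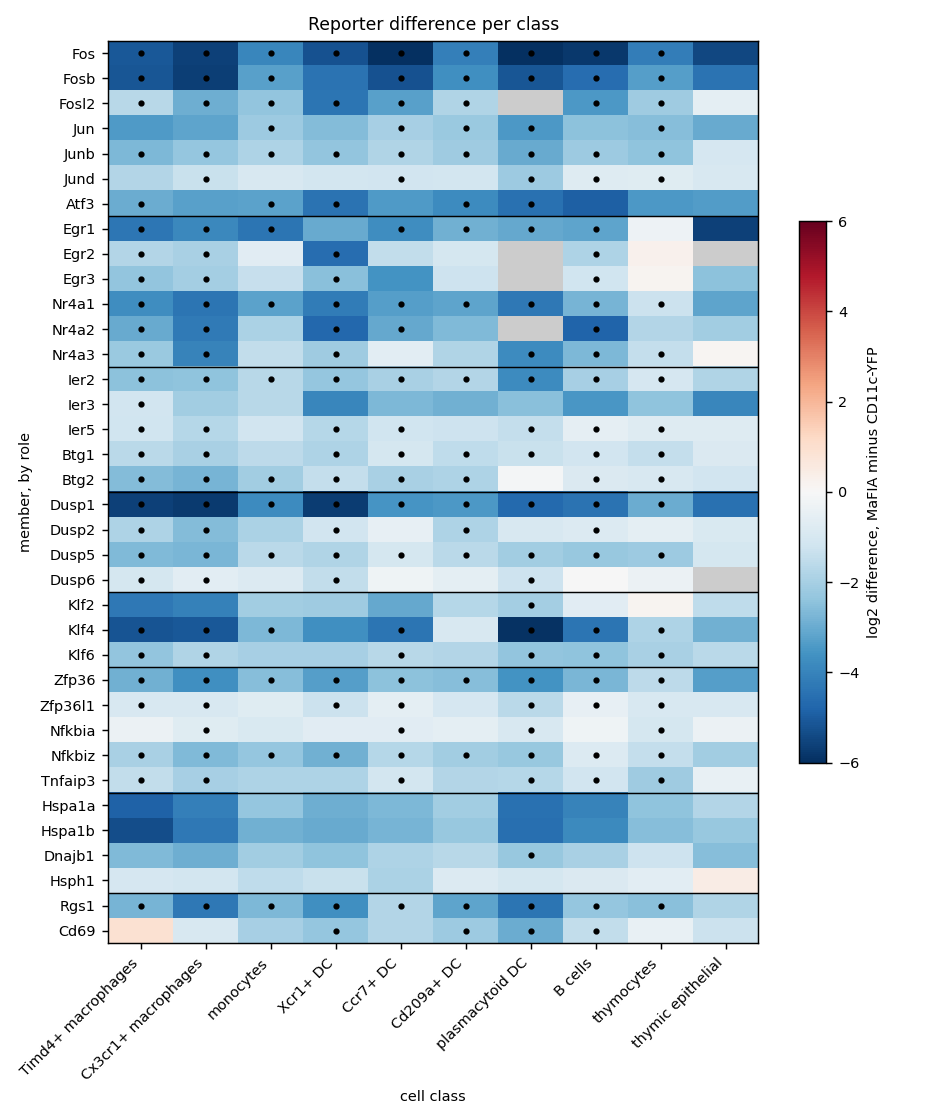
Log2 difference, MaFIA replicate 2 minus the CD11c-YFP libraries, of each member (rows) in each cell class (columns). The colour scale ends at 6 in both directions, dots mark an edgeR adjusted p under 0.05 and grey marks pairs that were not tested; negative values fill almost the whole plot, and dots are missing from the thymic epithelial column and from nearly all heat shock rows.

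Of 354 tested pairs, 207 were called lower in MaFIA and 0 higher, while over all genes and classes 3.36% of pairs were lower and 2.3% higher. The macrophage classes had the most calls: 27 of 36 members in Cx3cr1+ macrophages, where 3.76% of all genes tested were lower and 2.19% higher, and 27 in Timd4+ macrophages (4.96% lower and 5.54% higher). B cells had 26 (5.33% and 3.32%), and plasmacytoid dendritic cells had 26 of 32 (4.77% and 2.83%). Ccr7+ dendritic cells had 23 (4.85% and 3.73%), Xcr1+ dendritic cells 22 (5.61% and 3.47%), Cd209a+ dendritic cells 18 (0.54% and 0.0842%), thymocytes 22 (1.57% and 0.601%) and monocytes 16 (0.474% and 0.0911%). Thymic epithelial cells had 0 of 34 (0.0117% and 0.0583%) in edgeR, 18 at an unadjusted p under 0.05 (2.66% of all genes lower) and 6 in DESeq2 (0.253%), and there the median log2 difference of the members was -1.78. In the other classes that median was between -1.44 in thymocytes and -2.76 in Cx3cr1+ macrophages. The classes of dendritic cells were not made up of the same clusters in every library. In Xcr1+ dendritic cells, a cluster led by Mt3 and Cd207 held 373 of 920, 66 of 1234 and 273 of 2868 cells in MaFIA replicate 2, CD11c-YFP replicate 1 and CD11c-YFP replicate 2. In Cd209a+ dendritic cells, a cluster led by Sirpb1a and Ifitm6 held 83 of 561, 601 of 1094 and 201 of 1013 cells, and one led by Cd209e and Cd209d held 188, 105 and 222.

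Fos was lower in MaFIA in every class, and the call was made in 9 of 10. In Timd4+ macrophages, which engulf dying thymocytes, it had 37.4 CPM in MaFIA, against 1277 and 1370 CPM in CD11c-YFP (log2 -5.09), and in Cx3cr1+ macrophages 25.0 CPM, against 1150 and 1309 CPM (log2 -5.61). Monocytes had the highest MaFIA level, with 132 CPM, against 1850 and 1992 CPM in CD11c-YFP (log2 -3.89). The largest difference was in plasmacytoid dendritic cells, the type I interferon producers, with 1.79 CPM from 10 UMIs in MaFIA, against 553 and 901 CPM in CD11c-YFP (log2 -8.66, SE 0.67). In thymic epithelial cells, with 9 UMIs and 17.8 CPM in MaFIA, against 442 and 1114 CPM in CD11c-YFP, the same direction did not pass (edgeR adjusted p = 0.350). Dusp1, Nr4a1, Zfp36, Junb, Ier2, Dusp5, Nfkbiz and Rgs1 were likewise called in 9 classes. Each missed thymic epithelial cells, where 0 of 34 members were called. Calls in 9 classes were not counted over all genes, so whether this is unusual is not known.

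In 18 pairs MaFIA was not below both CD11c-YFP libraries, 7 of them in thymic epithelial cells and 4 in thymocytes. In 6 of these pairs MaFIA was above both CD11c-YFP libraries: Egr2 and Klf2 in thymocytes, Dusp6 in B cells and thymic epithelial cells, Nr4a3 in thymic epithelial cells, and Cd69 in Timd4+ macrophages. None of these was called. Klf2, which controls the exit of thymocytes, had 198 CPM in MaFIA thymocytes, against 157 and 177 CPM in CD11c-YFP. Cd69 in Timd4+ macrophages had 11.7 CPM from 90 UMIs in MaFIA, against 7.33 and 5.05 CPM from 30 and 14 UMIs in CD11c-YFP. Hsph1 supplied 7 of the 12 pairs in which MaFIA lay between the CD11c-YFP libraries, and the heat shock genes as a group were below both in 33 of 40 pairs. Only 1 heat shock call was made in any class, for Dnajb1 in plasmacytoid dendritic cells.

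The same comparison was made with a per-cell marker gate that could be applied to all 4 libraries, in 7 classes. Both MaFIA libraries lay below both CD11c-YFP libraries in 228 of 252 pairs of a member and a class, against 23.7% of pairs over genes of at least 10 CPM on average, and both lay above both in 0. This held in 210 of 224 pairs for the immediate early members and in 18 of 28 for the heat shock members. In Cx3cr1+ macrophages, for example, Fos had 17.8 and 24.8 CPM in MaFIA replicates 1 and 2, against 994 and 1174 CPM in CD11c-YFP. Xcr1+ dendritic cells had 42.9 and 51.1 CPM, against 1661 and 2149 CPM. Only 25 cells of MaFIA replicate 1 passed the gate as Cx3cr1+ macrophages, and 67.8% to 89.3% of the gated cells of that library lay near the cut in each of the 7 classes. Its summed level of the immediate early members was almost the same in every class, 2012 to 2344 CPM, and close to its whole-library value of 2216 CPM, so in that library the 7 classes repeat about the same value. In MaFIA replicate 2 that sum was 1668 to 4979 CPM. With 2 libraries in each group, 23 members were called lower in Cx3cr1+ macrophages (1.32% of all genes lower and 0.376% higher) and 19 in Xcr1+ dendritic cells (0.64% and 0.0569%). In the other 5 classes 0 members were called, and between 0 and 5 of all genes. There, 25 to 31 members were lower at an unadjusted p under 0.05 in edgeR, against 2.99% to 4.94% of all genes, and DESeq2 called 13 to 25 members lower, against 0.344% to 0.982% of all genes. The median log2 difference of the members was between -1.88 and -2.58 over the 7 classes.

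The size of the difference varied between classes for 14 members, all of them immediate early genes, in a test of the interaction between reporter and class that 1.47% of 19354 genes passed (edgeR quasi-likelihood F test). Klf4 varied most (edgeR adjusted p = 1.98e-07). The make-up of Cd209a+ dendritic cells by cluster differed between libraries, as given above. By the per-cell marker gate, 986 of these cells kept their class, 1115 had none and 218 were monocytes. In this class Klf4 had 215 CPM in MaFIA, against 373 and 421 CPM in CD11c-YFP, a log2 difference of -0.95 that did not pass. Cx3cr1+ macrophages had 4.55 CPM, against 129 and 187 CPM (log2 -5.11), and plasmacytoid dendritic cells had 2.51 CPM, against 120 and 190 CPM (log2 -5.93). Of the other 9 classes, 6 had at most 11.8 CPM of Klf4 in MaFIA.

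**Figure D3:**
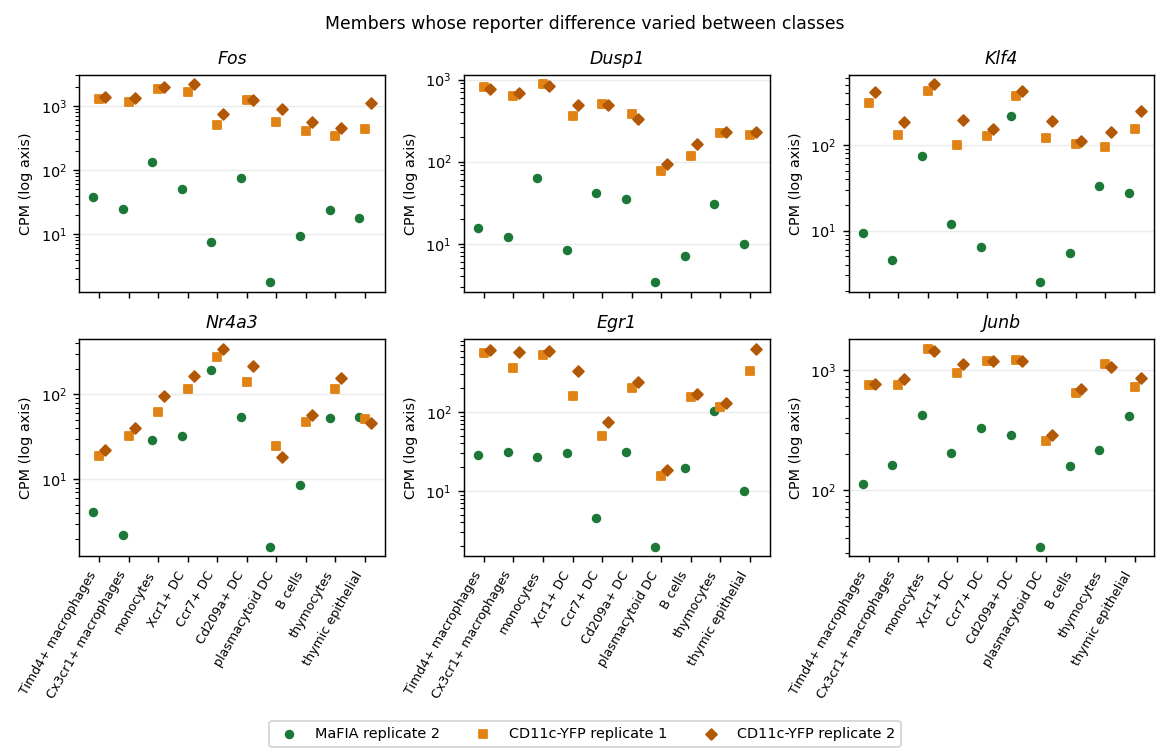
Level of Fos, Dusp1, Klf4, Nr4a3, Egr1 and Junb in CPM (log axis) in each of 10 cell classes, 1 point per library. The MaFIA points lie below the CD11c-YFP points almost everywhere and come close to them for Klf4 in Cd209a+ dendritic cells, Nr4a3 in Ccr7+ dendritic cells and Egr1 in thymocytes.

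Nr4a3 differed between classes in the same manner (edgeR adjusted p = 2.73e-05). In Ccr7+ dendritic cells, the activated migratory dendritic cells, it had 195 CPM in MaFIA, against 278 and 343 CPM in CD11c-YFP (log2 -0.62, not called). Cx3cr1+ macrophages had 2.23 CPM, against 32.6 and 40.5 CPM (log2 -4.02). For both genes the smallest difference, thymic epithelial cells aside, was in the class with the highest MaFIA level. Egr1 was nearly equal in thymocytes, with 103 CPM in MaFIA, against 116 and 129 CPM in CD11c-YFP (log2 -0.31, not called), and differed most among called classes in monocytes, with 27.0 CPM, against 523 and 584 CPM (log2 -4.38). Dusp1 differed in all classes but less in thymocytes (log2 -2.96) than in Cx3cr1+ macrophages (log2 -5.76). Without the thymic epithelial class 18 members passed the interaction test, against 2.21% of all genes. No heat shock gene passed in the test over all 10 classes.

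**Figure D4:**
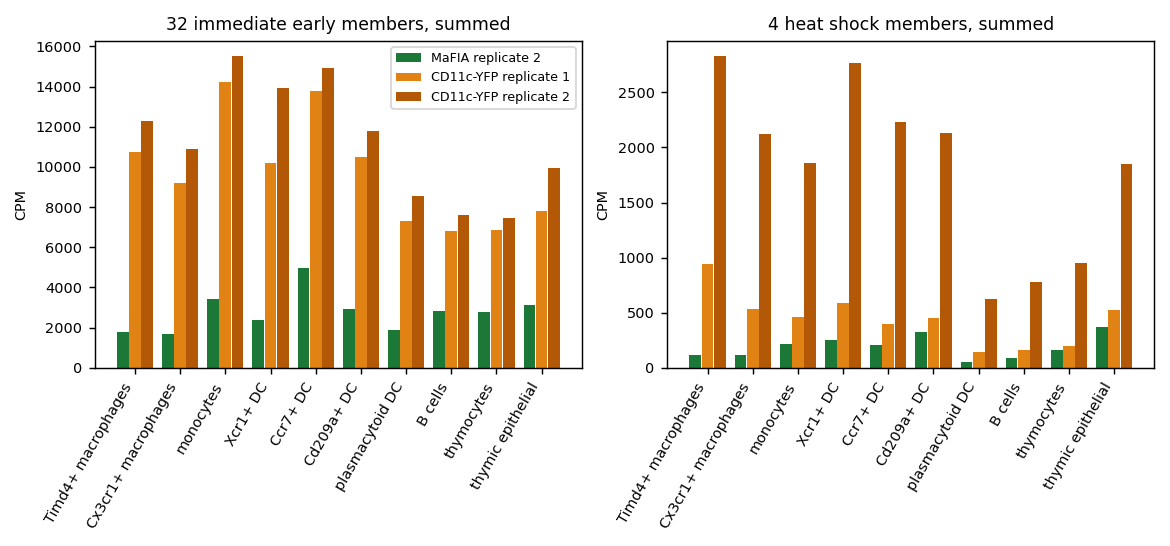
Summed level of the 32 immediate early members (left) and of the 4 heat shock members (right) in each class, as bars for MaFIA replicate 2, CD11c-YFP replicate 1 and CD11c-YFP replicate 2 in CPM. On the left both CD11c-YFP bars exceed the MaFIA bar in every class and are close to each other; on the right the CD11c-YFP replicate 2 bar exceeds that of replicate 1 at least 3.01-fold in every class.

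Summed over the 32 immediate early members, the classes of MaFIA replicate 2 had 1654 to 4981 CPM, against 6801 to 14209 CPM in CD11c-YFP replicate 1 and 7462 to 15504 CPM in CD11c-YFP replicate 2, so that the groups did not overlap. The 4 heat shock members summed to 54.0 to 370 CPM in MaFIA, against 146 to 940 CPM and 622 to 2827 CPM in CD11c-YFP. The ratio of CD11c-YFP replicate 2 to replicate 1 was 3.01 to 5.58 across classes for the heat shock genes and 1.09 to 1.37 for the immediate early genes. Thus the gap between the CD11c-YFP libraries in heat shock genes was present in every class.

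The difference was also seen in the median cell of each class. After every cell was thinned to 3000 UMIs, the median cell carried 4 to 14 UMIs of the 32 immediate early genes in the classes of MaFIA replicate 2, against 18 to 40 in CD11c-YFP replicate 1 and 19 to 47 in CD11c-YFP replicate 2. The lowest 10% of CD11c-YFP cells had at most 5 to 22 and 6.2 to 24 UMIs by class, while the highest 10% of MaFIA cells had at least 9 to 23. For the 4 heat shock genes the median cell carried 0 UMIs in all MaFIA classes, against 0 to 1.5 and 1 to 7 in CD11c-YFP replicates 1 and 2. Free RNA in the droplets adds to such counts in every cell, and its part was not tested.

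**Figure D5:**
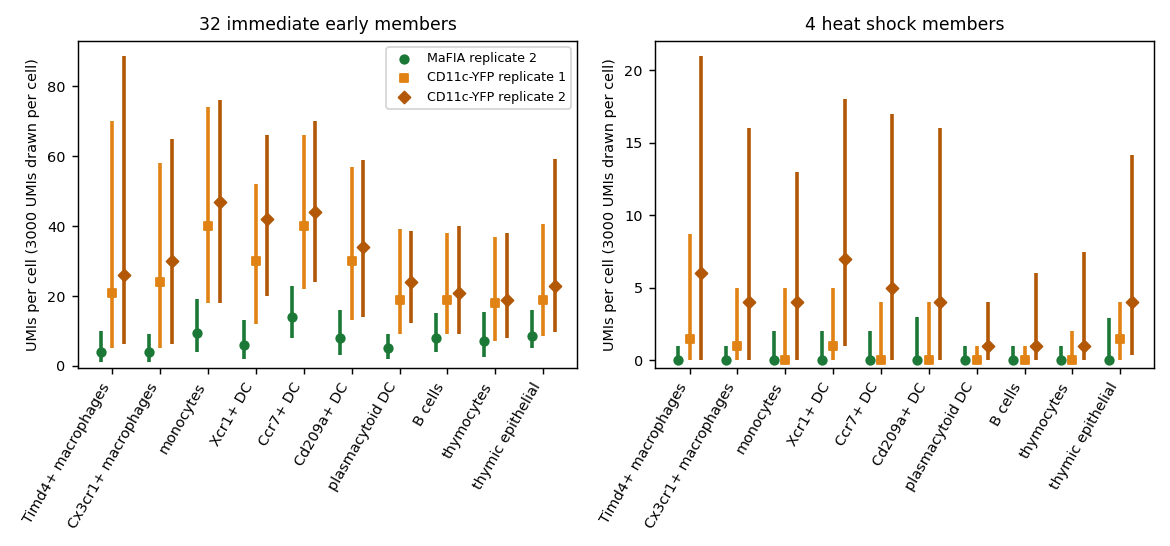
UMIs per cell of the 32 immediate early genes and of the 4 heat shock genes in each class after every cell was thinned to 3000 UMIs, shown as the median with the 10th and 90th percentiles over cells for MaFIA replicate 2, CD11c-YFP replicate 1 and CD11c-YFP replicate 2. Immediate early medians are 4 to 14 in MaFIA and 18 to 47 in CD11c-YFP; heat shock medians are 0 in all MaFIA classes and reach 7 in CD11c-YFP replicate 2.

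Within a class of the CD11c-YFP libraries, cells with more Fos tended to have more Junb and Fosb, with coefficients above 0 in every class measured, as a description over cells that share a library. In MaFIA replicate 2 the coefficients were near 0, between -0.0101 and 0.214 for Fos and Junb and between -0.0307 and 0.15 for Fos and Fosb. The Spearman coefficient of Fos and Fosb had a median over classes of 0.0928 in MaFIA replicate 2, against 0.338 and 0.404 in CD11c-YFP replicates 1 and 2. Low counts limit such coefficients, and those of MaFIA rest on the lowest counts. Hspa1a and Hspa1b had the highest median, with 0.237 in MaFIA, against 0.439 and 0.579 in CD11c-YFP.

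The members also differed between the classes within libraries. In edgeR's quasi-likelihood test of each class against the mean of the others, with library as a block, 210 of 360 pairs of a member and a class passed (48.3% of pairs over all genes). Monocytes were higher for 23 members and lower for 1 (21.4% and 13.8% of all genes), and Xcr1+ dendritic cells were higher for 23 and lower for 4 (30.4% and 22.6%). Ccr7+ dendritic cells were higher for 19 and lower for 6 (33.4% and 26.6%) and Cd209a+ dendritic cells higher for 17 and lower for 3 (26.2% and 13.2%). Plasmacytoid dendritic cells were lower for 22 members and higher for 8 (23.8% and 22.3% of all genes). In the other classes the counts in both directions were closer to the shares over all genes: thymocytes were lower for 13 and higher for 8 (22.2% and 26.6%), Timd4+ macrophages lower for 11 and higher for 8 (25.6% and 28%), B cells lower for 11 and higher for 6 (22.4% and 31.3%), and Cx3cr1+ macrophages lower for 10 and higher for 7 (17.8% and 28.8%). Thymic epithelial cells were lower for 9 and higher for 1 (20.8% and 25.7%). The shares over all genes are high because the classes are different cell types, so these counts are read against them.

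Because the fit pools libraries of very different level, the order of the classes was also read in each library. The highest class was the same in all 3 libraries for 15 members. This count and that of the lowest class were not made over all genes, so whether they are unusual is not known. Ccr7+ dendritic cells were highest for 8 of them: Dusp5 (log2 3.07 over the mean of the other classes), Nr4a3 (log2 3.31), Rgs1 (log2 2.73), Klf6 (log2 2.43), Btg1 (log2 2.05), Ier5, Zfp36l1 and Tnfaip3. Monocytes were highest for 5, Dusp1, Junb, Zfp36, Atf3 (log2 2.12) and Nfkbiz, while Cd209a+ dendritic cells were highest for Fosl2 (log2 2.06) and B cells for Cd69 (log2 2.55). The lowest class was the same in all 3 libraries for 19 members, and for 13 of these it was plasmacytoid dendritic cells, among them Ier3 (log2 -4.31), Atf3 (log2 -4.22), Egr1 (log2 -4.13), Hspa1a and Hspa1b. Dnajb1 had its lowest CPM in Ccr7+ dendritic cells.

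For other members the highest class depended on the library. Fos was highest in monocytes in MaFIA replicate 2 and CD11c-YFP replicate 1, and in Xcr1+ dendritic cells in CD11c-YFP replicate 2. Nr4a1 had 93.4 CPM in thymocytes and 14.0 CPM in Xcr1+ dendritic cells of MaFIA, whereas CD11c-YFP had 205 and 234 CPM in thymocytes and 255 and 256 CPM in Xcr1+ dendritic cells. Dusp6 was highest in Cx3cr1+ macrophages in MaFIA (77.3 CPM) and in Timd4+ macrophages in both CD11c-YFP libraries (146 and 135 CPM). Klf4 was highest in Cd209a+ dendritic cells in MaFIA and in monocytes in both CD11c-YFP libraries. Egr1 and Hspa1a had a different highest class in each of the 3 libraries. The direction of all 210 calls was kept when each library was left out in turn, in fits that share libraries with the full one. Of these calls, 200 still passed without MaFIA replicate 2, 135 without CD11c-YFP replicate 1 and 146 without CD11c-YFP replicate 2. Counting pairs not called before, 136 to 252 pairs passed in these fits.

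Genes of related programmes were compared in the sums of equal class make-up. Here and in the next paragraph, the counts are read against the shares of all genes lower and higher given with that comparison above. The median log2 difference over all genes tested was -0.01. Of 41 other immediate early genes tested, 28 were lower in MaFIA and 0 higher, with a median log2 difference of -1.27. Ppp1r15a, a stress-induced phosphatase subunit, had 34.2 CPM in MaFIA, against 169 and 202 CPM in CD11c-YFP (log2 -2.46), and the transcription factor Nfil3 had 8.14 CPM, against 35.6 and 46.1 CPM (log2 -2.34). Dusp8 also fell, at low level (log2 -2.18). Of 22 kinases and transcription factors that regulate immediate early genes, by contrast, Crem alone fell (11.3, against 23.4 and 22.3 CPM), and the median log2 difference was -0.13.

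Of 25 other NF-kB feedback and early cytokine genes, 6 were lower and 1 higher. Ptgs2, the inducible cyclooxygenase, had 4.09 CPM in MaFIA, against 36.5 and 33.8 CPM in CD11c-YFP (log2 -3.12), Il1b had 52.1 CPM, against 266 and 306 CPM (log2 -2.47), and Socs3 had 27.0 CPM, against 85.1 and 79.5 CPM (log2 -1.62). Of 30 other heat shock proteins and chaperones, 3 were lower and 2 higher, with a median of 0.04. Among them Hspa2 (log2 -1.94) and Hsf2 (log2 -0.94), a heat shock factor, were lower, and Serpinh1, a collagen chaperone, was higher at a low level (1.46, against 0.455 and 0.560 CPM; log2 1.51), a call that reversed to -0.68 in whole libraries of 2 against 2. Of 14 genes of the unfolded protein and integrated stress response, 2 were lower and 3 higher: Chac1 (log2 -1.45) and Atf4 (log2 -0.66) fell while Asns, an asparagine synthetase, rose (log2 1.18). Of 13 hypoxia and oxidative stress genes, Vegfa (log2 -2.47), Pgk1 (log2 -0.92) and Txnrd1 (log2 -0.42) were lower and 0 higher. Among 9 genes that report on RNA quality or serve as references, the nuclear RNA Neat1 (log2 -0.99) and Ppia (log2 -0.55) were lower and Gapdh was higher (log2 0.53).

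Other features of the libraries also differed between the reporter groups, to varying extents, given here from whole libraries. Markers are counted as higher or lower when both MaFIA libraries lay above or below both CD11c-YFP libraries. Of all genes of at least 10 CPM, 24.2% were lower by this rule. The share higher was not counted, so whether a list's count is unusual is not known. All 8 neutrophil markers were higher in both MaFIA libraries, with sums of 462 and 126 CPM, against 13.0 and 10.6 CPM in CD11c-YFP. Conversely, all 6 fibroblast markers were lower, with sums of 1.42 and 2.74 CPM in MaFIA, against 209 and 85.7 CPM in CD11c-YFP. Of 5 erythroid markers 3 were higher (9.71 and 11.9 CPM, against 2.21 and 0.509 CPM), of 8 thymocyte markers 5 were higher (557 and 408 CPM, against 367 and 235 CPM), and of 7 B cell markers 3 were higher and 2 lower (1267 and 1671 CPM, against 4243 and 3601 CPM). All 7 plasmacytoid dendritic cell markers were higher (2170 and 2602 CPM, against 1030 and 887 CPM), as were 6 of 7 Cd209a+ dendritic cell markers (894 and 934 CPM, against 418 and 525 CPM) and 5 of 6 markers shared by macrophages (4678 and 4263 CPM, against 2878 and 1894 CPM). Of 7 Timd4+ macrophage markers 5 were higher, and of 8 Cx3cr1+ macrophage markers 6, whereas 4 of 7 Ccr7+ dendritic cell markers were lower (1858 and 1676 CPM, against 3316 and 3680 CPM) and 4 of 7 Xcr1+ dendritic cell markers were lower and 1 higher. Of these lists and those above, 1 fibroblast marker and 1 erythroid marker were at 0 in MaFIA replicate 1, and 1 neutrophil and 1 erythroid marker in CD11c-YFP replicate 1. In other lists, 2 of 8 monocyte, 3 of 6 thymic epithelial, 2 of 4 endothelial and 1 of 3 basophil and mast cell markers were higher and 0 lower. Of 6 cytotoxic lymphocyte markers, 2 were lower and 0 higher. Of the basophil and mast cell markers, 2 were at 0 in MaFIA replicate 1 and 1 in each CD11c-YFP library. The share of mitochondrial RNA was 2.29% and 2.204% in MaFIA, against 1.59% and 1.70% in CD11c-YFP. The nuclear RNA Malat1 was lower in both MaFIA libraries, with 15396 and 25258 CPM, against 28937 and 33287 CPM. The part of these features in the result was not tested.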

How the data were processed

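Single-cell RNA libraries of sorted thymus cells were made with a 10x 3′ kit. The authors deposited UMI counts per gene and cell barcode, not normalized; their methods name Cell Ranger, and their processing notes name bcl2fastq 2.20, STAR 2.7.9a and GRCm39. Cells with 1000 to 7000 genes and at most 10% mitochondrial counts were kept (6219, 7646 and 9684 of the 3 deep libraries), clustered in 2 rounds without the members (Leiden), and named from fixed markers by a rule set after the clusters were seen; doublets were kept. Counts were summed per class and library and tested with edgeR 4.0.16 (robust quasi-likelihood, TMM). Robust fitting was chosen on simulated data with the same spread for every gene, a setting that genes with a wider spread do not meet. There, 70.6% of 2-fold changes were recovered in the sums of equal class make-up. The interaction test recovered 11.0% of 2-fold changes placed in 1 class. For sums of equal class make-up, each class was thinned to its smallest total. Heat shock members and the 12 members with the largest differences are given in full, and up to 3 genes of each list are named. The members and lists were chosen with earlier results of these data known. Intervals and tests cover counting and library spread only. Alternatives were DESeq2 1.42.0, limma 3.58.1, other filters, normalizations and class definitions.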

Additional observations from a re-analysis of the deposited data

Results flagged for a closer look

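For 14 members, edgeR's quasi-likelihood test of the interaction found that the reporter difference was not of the same size in the 10 classes. The adjusted p was 1.98e-07 for Klf4, 7.73e-06 for Dusp1, 2.73e-05 for Nr4a3, 0.000235 for Junb, 0.000669 for Fosb, 0.000944 for Zfp36, 0.000961 for Btg2, 0.00105 for Fosl2, 0.00343 for Egr1, 0.00655 for Ier2, 0.00771 for Dusp5, 0.0162 for Atf3, 0.0407 for Nr4a2 and 0.0450 for Fos in edgeR. Btg2 ran between -2.77 in Cx3cr1+ macrophages and -0.10 in plasmacytoid dendritic cells on the log2 scale, MaFIA minus CD11c-YFP, and Fosl2 between -4.37 in Xcr1+ dendritic cells and -0.57 in thymic epithelial cells. The test takes the spread of the lone MaFIA library to equal that of the classes within the CD11c-YFP libraries, which was not tested.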

How the results depend on the processing

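The main fits hold 1 MaFIA library and cannot take a replicate block. In the fits of 4 libraries, where same-numbered libraries share only a number (correlation of their deviations -0.0214), the replicate block, chosen after seeing the data, gave 31 members and 1360 genes in whole-library sums and 92 pairs of members and 859 of all genes with the marker gate, and the block fit of whole-library sums also reversed Dusp6 (0.087) and Serpinh1 (-0.54). In sums of equal class make-up, 22 members and 1734 genes passed. Without a low-count filter 1 member and 9 genes did, and in whole-library sums of the classified cells 11 and 62. DESeq2 called 31 members, with 1017 of all genes lower and 577 higher, and limma called 32. All genes called were 3170 with doublets removed, 649 with limma and 883 in sums of 4 libraries, an alternative chosen after seeing the data, which also called 29 members and reversed Dusp6 (0.078) and Serpinh1 (-0.68). Per class, 207 pairs of members and 7001 of all genes passed; DESeq2 called 3400 of all genes, no filter 13269, and the gate in 4 libraries 42 and 311. For the interaction, 14 members and 285 genes passed; DESeq2 called 30 and 1776, no filter 34 and 2113, the gate 659 genes and doublet removal 451. For class differences, 210 pairs passed, 55 without the library term and 136 to 252 with a library left out (64271 to 71686 over all genes). The median member difference was -2.13 to -1.61 with either CD11c-YFP library left out, values with no test. Of 432 member values under alternatives, 342 kept direction and call, 35 lost the call, 53 gained it and 2 reversed. The thymic epithelial class was limited by cell number (16 to 25 cells a library) and by uncertain class membership, and MaFIA replicate 1 by depth. In CD11c-YFP replicate 1, 7 of the 16 thymic epithelial cells scored as likely doublets. By the per-cell marker gate, 29 cells of this class kept it, 23 had none and 9 were Xcr1+ dendritic cells. The causes of these changes were not tested.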
